A study of Homo sapiens with 12 samples.

Results

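The 9 genes described here are transcriptional targets of YAP and TEAD: CCN1, CCN2, ANKRD1, AMOTL1, AMOTL2, AJUBA, LATS2, AXL and F3. They were taken by name, with no measured value in the rule, and found by gene name and Ensembl identifier. Earlier results of these data were known when they were chosen. All 9 were listed in both count tables, out of 30984 genes listed for KYSE30 and 78691 for U138MG, and all 9 passed the filter on low counts in both lines.

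The study inhibited PTDSS1, which makes phosphatidylserine from phosphatidylcholine, and asked by RNA-seq how cancer cells respond at the transcript level. Poly-A RNA was sequenced from 12 cultures in 4 groups. KYSE30, an esophageal squamous cell carcinoma line (ESCC), and U138MG, the glioblastoma (GBM) model of the study, each had 3 cultures in 100 nM of the inhibitor (PTDSS1i) for 48 h and 3 in the vehicle DMSO. Both lines are labelled wild type, and each is a single line with a batch label of its own, so that line and batch cannot be told apart. The labels give 1 growth medium for all 12 cultures, whereas the study's methods give the GBM cells another one.

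The Hippo pathway is a kinase cascade that restrains the coactivators YAP (YAP1) and TAZ (WWTR1). When the kinases LATS1 and LATS2 phosphorylate them, they are held in the cytoplasm or degraded. Otherwise they enter the nucleus, bind TEAD factors at DNA and switch on genes of growth, adhesion and matrix. The pathway senses cell density, adhesion and tension of the actin cytoskeleton, and its readout genes include secreted matrix proteins (CCN1, CCN2) as well as its own inhibitors (AMOTL2, LATS2), a negative feedback.

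Library totals lay between 18800932 and 26514658 counts, and a count of 3, taken as the floor, corresponds to 0.113 to 0.16 CPM. Replicates differed beyond sampling noise in each group (chi-square per degree of freedom 2.29 to 7.44), and no pair of libraries looked like repeat deposits of 1 library. The libraries labelled U138MG carried markers of squamous epithelium that a GBM line would not be thought to carry. The keratin KRT5 stood at 1399 normalized CPM in DMSO, CDH1 (E-cadherin) at 441 and EPCAM at 236, whereas vimentin (VIM) stood at 0.196 and the glial genes OLIG2 and S100B were at 0 counts in every library. Of the other keratins of the squamous list, KRT15 stood at 4629 in DMSO, and KRT14 did not pass the filter on low counts. These libraries also held some markers of the mesenchymal and glial lists, with the matrix gene SPARC at 678, COL1A1 at 51.8, SOX2 at 37.0 and CDH2 at 11.3 in DMSO. SOX2 was the only glial gene of the list above a low level there, with GFAP at 2.24 and NES at 0.530 in DMSO. For this reason they are called the libraries labelled U138MG. In the KYSE30 libraries CDH1 stood at 496, EPCAM at 270 and TP63 at 94.7 in DMSO, whereas KRT5 did not pass the filter on low counts. The summed squamous level was lower and the summed glial level higher in KYSE30 than in the libraries labelled U138MG, as given below. In KYSE30 SOX2 was the only glial marker that passed the filter on low counts, so that the glial sum there rests on this gene. Normalized CPM is the count relative to the library total after TMM scaling, and all levels below are on this scale unless a level per kb is named.

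The proximal promoters of 3 of the genes are shown because these 3 had the largest falls in KYSE30 (ANKRD1 and CCN2) or the largest rise in the libraries labelled U138MG (F3). Each is the RefSeq window of 250 bases before and 50 after the transcription start on GRCh38.p14, read on the gene's own strand. Capitals mark GGAATG or its reverse complement CATTCC, the core of the TEAD site, and TGANTCA, the AP-1 site, which reads as the same pattern on both strands.
CCN2, chr6:131951323-131951622, minus strand: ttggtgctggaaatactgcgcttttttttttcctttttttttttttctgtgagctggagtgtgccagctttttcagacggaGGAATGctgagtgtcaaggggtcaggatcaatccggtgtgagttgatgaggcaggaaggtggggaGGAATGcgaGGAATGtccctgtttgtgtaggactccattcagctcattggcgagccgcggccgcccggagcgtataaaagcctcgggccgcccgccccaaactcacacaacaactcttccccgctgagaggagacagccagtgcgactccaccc
ANKRD1, chr10:90921038-90921337, minus strand: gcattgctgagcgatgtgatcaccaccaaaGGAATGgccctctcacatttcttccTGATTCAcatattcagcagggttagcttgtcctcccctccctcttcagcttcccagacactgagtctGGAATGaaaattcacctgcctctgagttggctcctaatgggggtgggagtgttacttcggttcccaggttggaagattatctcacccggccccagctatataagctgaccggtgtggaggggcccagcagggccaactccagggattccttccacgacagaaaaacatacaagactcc
F3, chr1:94541710-94542009, minus strand: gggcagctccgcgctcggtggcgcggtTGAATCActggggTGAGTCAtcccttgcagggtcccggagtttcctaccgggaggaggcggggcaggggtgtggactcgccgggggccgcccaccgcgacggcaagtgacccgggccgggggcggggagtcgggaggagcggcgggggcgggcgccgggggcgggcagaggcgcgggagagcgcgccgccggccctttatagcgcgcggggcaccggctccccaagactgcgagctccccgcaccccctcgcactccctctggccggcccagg
The CCN2 window held the TEAD core 3 times, at 169, 104 and 95 bases before the start. That of ANKRD1 held it at 220 and 128 bases before the start, with an AP-1 site at 195. The F3 window held AP-1 sites at 223 and 210 bases before the start, and these letters of the TEAD core were not in it. No match shared a base with another.

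For comparison, 14.0% of the 35116 RefSeq promoter windows of this length held at least 1 TEAD core, 1.37% at least 2 and 0.128% at least 3. The AP-1 site was in 7.71% of them, and 0.515% held at least 2. RefSeq windows were matched for 8 of the 9 genes, 11 windows in all, and CCN1 was not matched. The TEAD core was in 6 of these 11 windows, which belong to CCN2, ANKRD1, AJUBA, AMOTL2, AXL and LATS2. In AJUBA, AMOTL2 and AXL it lay in only 1 of the gene's windows, at 59, 69 and 212 bases before the start, and in LATS2 at 9 bases after it. A CArG box, the site of the serum response factor SRF, was in 0 of the 11 windows, against 1.29% of all windows. A match is a run of letters and was not tested as a binding site.

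In KYSE30 cells the target genes mostly fell with PTDSS1i. In edgeR's quasi-likelihood test, adjusted over 16389 genes by the Benjamini-Hochberg method, 7 of the 9 were lower, 1 was higher and 1 did not pass an adjusted p of 0.05. Of all genes tested, 32.0% were called lower and 30.1% higher. ANKRD1 and CCN2 fell the most and were the 2 that also passed an absolute log2 fold change of 1, which 7.04% of all genes did downwards and 6.40% upwards. The median log2 change of the 9 genes was -0.52, and that of all tested genes -0.03. The DMSO and PTDSS1i ranges did not overlap for 8 of the 9, beside 66.3% of all genes, with 7 below the vehicle range (34.2% of all genes) and 1 above it (32.1%).

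The same genes split in the libraries labelled U138MG. Over 17666 genes, 4 of the 9 were higher (33.9% of all genes were), 3 were lower (33.6%) and 2 did not pass. F3 was past the fold threshold upwards, as were 8.19% of all genes, and AJUBA downwards, as were 11.6%. The median log2 change of the 9 was -0.11, against -0.03 for all genes. The ranges did not overlap for 7 of the 9, beside 71.4% of all genes, with 4 above (35.5%) and 3 below (35.9%). In both lines the shares in either direction were read beside a background in which 62.0% of genes in KYSE30 and 67.5% in U138MG were called, so a call by itself says little here, and the sizes and directions carry more. With 3 cultures against 3 an exact permutation test cannot give a p below 0.1, so that single-gene calls rest on the spread modelled across all genes, and where cultures share a source that spread may be technical. In bulk RNA, fewer cells of a kind and less RNA per cell cannot be told apart.

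**Figure D1:**
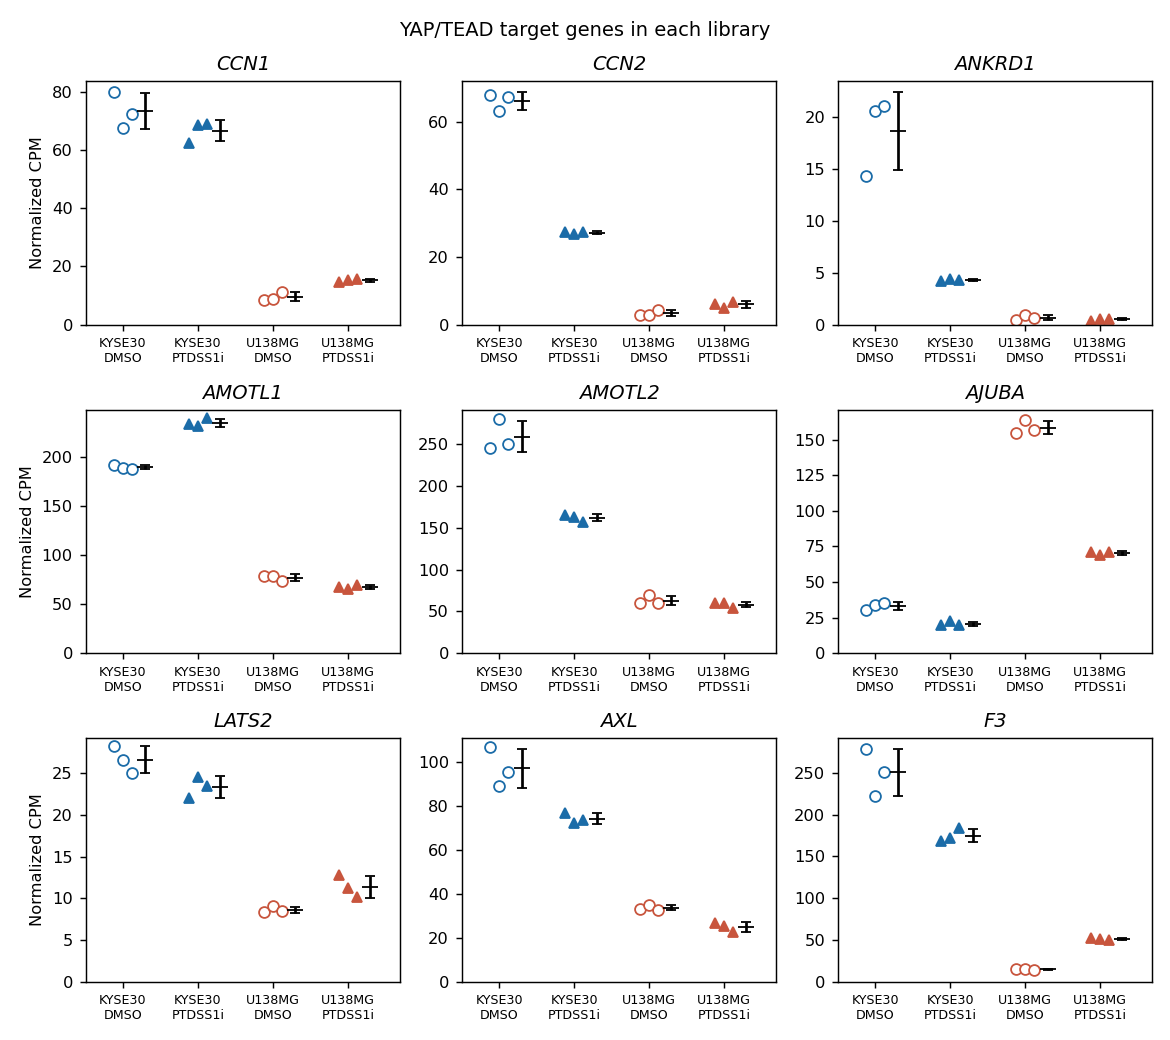
Normalized CPM (linear axis from 0, a scale of its own for each gene) of the 9 YAP/TEAD target genes in each of the 12 libraries; open circles are DMSO, filled triangles PTDSS1i, blue KYSE30 and red the libraries labelled U138MG, and the black bars are the mean and SD of 3 cultures. CCN2 fell from a mean of 66.1 to 27.1 in KYSE30, F3 rose from 14.9 to 51.6 in U138MG, and AJUBA is the gene whose DMSO level is higher in U138MG.

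CCN1 (formerly CYR61; chr1:85580761-85583962, plus strand, GRCh38) and CCN2 (formerly CTGF; chr6:131948176-131951373, minus strand) are paralogous secreted matricellular proteins that bind integrins, and both are common readouts of YAP. CCN2 in KYSE30 stood at 68.0, 63.2 and 67.2 in DMSO and at 27.3, 26.7 and 27.5 in PTDSS1i. All 3 treated libraries lay far below the vehicle libraries, with little spread in either group. Its mean went from 66.1 ± 2.57 to 27.1 ± 0.431 (SD, n = 3), a log2 change of -1.28 (SE 0.06, edgeR adjusted p = 6.11e-14), so that the fitted level fell by 58.9%. CCN2 was scarce in the libraries labelled U138MG, at 2.95, 3.03 and 4.35 in DMSO and 6.23, 4.97 and 6.79 in PTDSS1i. There the treated libraries were the higher ones, without overlap, and the log2 change was 0.80 (SE 0.18, edgeR adjusted p = 2.42e-04). CCN2 thus fell in one line and rose in the other.

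CCN1 did not follow CCN2 in KYSE30. Its levels there were 80.0, 67.6 and 72.2 in DMSO and 62.4, 68.4 and 68.9 in PTDSS1i. The groups overlapped, and the log2 change of -0.14 (95% CI -0.27 to -0.01, edgeR adjusted p = 0.0638) did not pass, although it did when library size alone or the upper quartile set the scale (-0.24 and -0.16, adjusted p = 2.09e-03 and 0.031) and when DMSO replicate 2 was left out (-0.20, adjusted p = 0.0131). In all, 4 of the 15 alternatives run called CCN1 lower in KYSE30. CCN1 in the libraries labelled U138MG went from 8.59, 8.76 and 11.4 to 14.7, 15.5 and 15.7. Every treated library was above every vehicle library, and the log2 change was 0.67 (SE 0.10, edgeR adjusted p = 1.77e-06). CCN2 shares 8.34% of its exon length with an antisense gene, AL133346.1, in GENCODE 29. The use of strand in the counting is not given in the sources used here, so reads of the 2 genes cannot be told apart over that stretch.

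ANKRD1 (chr10:90912096-90921276, minus strand) encodes an ankyrin repeat protein of the nucleus and the muscle sarcomere that is strongly induced by YAP in many cells. It had the largest change of the 9 in KYSE30, from 14.3, 20.5 and 21.0 in DMSO to 4.20, 4.38 and 4.33 in PTDSS1i. The treated libraries were nearly equal and below all vehicle libraries, of which DMSO replicate 1 was the lowest. The means were 18.6 ± 3.72 and 4.30 ± 0.0979 (SD, n = 3), a log2 change of -2.11 (SE 0.14, edgeR adjusted p = 3.91e-10), and the fitted level fell by 76.9%. ANKRD1 in the libraries labelled U138MG was near the floor, with counts of 10, 22 and 14 in DMSO and 9, 13 and 15 in PTDSS1i. The groups overlapped, and the interval of the log2 change, -1.22 to 0.47 around -0.38 (edgeR adjusted p = 0.423), was wide. It included 0 and did not include the change seen in KYSE30.

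AMOTL1 (chr11:94706431-94876753, plus strand) and AMOTL2 (chr3:134355874-134375479, minus strand) are angiomotin-like scaffold proteins of cell junctions that bind YAP and hold it back. They moved in opposite directions in KYSE30. AMOTL2 went from 246, 280.0 and 250.3 to 165, 163 and 157, and AMOTL1 from 191, 189 and 187 to 234, 231 and 239.5. Neither gene's groups overlapped. The log2 change was -0.68 for AMOTL2 (SE 0.06, edgeR adjusted p = 6.78e-10) and 0.31 for AMOTL1 (SE 0.05, edgeR adjusted p = 8.75e-06), which made AMOTL1 the 1 target of the 9 that rose in KYSE30.

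AMOTL1 went the other way in the libraries labelled U138MG, from 78.9, 78.9 and 73.4 to 68.0, 65.5 and 69.2. The vehicle libraries were all above the treated ones by a narrow margin, and the log2 change was -0.19 (SE 0.04, edgeR adjusted p = 5.62e-04). AMOTL2 stood there at 59.6, 69.3 and 59.5 in DMSO and at 59.8, 60.5 and 54.2 in PTDSS1i. Its groups overlapped, and the log2 change of -0.11 (95% CI -0.24 to 0.01, edgeR adjusted p = 0.108) did not pass, but it did with library size alone or the upper quartile as the scale (both -0.26, adjusted p = 1.48e-03 and 1.20e-03) and with a filter of at least 10 counts in every library (-0.14, adjusted p = 0.0436). In GENCODE 29, AMOTL1 shares 4.94% of its exon length with the antisense gene AP002383.2, and AMOTL2 shares 3.13% with the pseudogene RPL39P5.

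AJUBA (chr14:22971174-22982642, minus strand) is a LIM domain protein of adherens junctions that binds LATS kinases and weakens Hippo signalling. It fell in both lines. In KYSE30 it went from 30.3, 33.6 and 35.6 to 19.6, 22.4 and 19.7. No treated library reached the vehicle range, and the log2 change was -0.69 (SE 0.08, edgeR adjusted p = 9.36e-08). In the libraries labelled U138MG, where AJUBA was several times more abundant, it went from 154.5, 164 and 157 to 71.0, 68.8 and 70.9. The groups were far apart, and the log2 change of -1.17 (SE 0.04, edgeR adjusted p = 1.21e-20) was the largest fall of the 9 there.

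LATS2 (chr13:20973032-21061547, minus strand) is a kinase that phosphorylates YAP and is itself a target of it. In KYSE30 it stood at 28.3, 26.6 and 25.0 in DMSO and at 22.0, 24.6 and 23.5 in PTDSS1i. The ranges nearly touched, and the log2 change of -0.19 (SE 0.07, edgeR adjusted p = 0.0319) was not secure. It did not pass with DESeq2 (-0.17, adjusted p = 0.112), with both lines fitted together (-0.15, adjusted p = 0.123), or when DMSO replicate 1, PTDSS1i replicate 1 or PTDSS1i replicate 3 was left out (adjusted p = 0.129, 0.15 and 0.0754). LATS2 in the libraries labelled U138MG went from 8.39, 9.06 and 8.48 to 12.8, 11.2 and 10.2. All treated libraries were the higher ones, and the log2 change was 0.40 (SE 0.11, edgeR adjusted p = 2.14e-03).

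AXL (chr19:41219203-41261766, plus strand) is a receptor tyrosine kinase whose ligand GAS6 bridges it to phosphatidylserine exposed on membranes. It was lower with PTDSS1i in both lines by similar amounts. In KYSE30 it went from 107, 89.3 and 95.7 to 77.1, 72.5 and 73.6, and in the libraries labelled U138MG from 33.4, 35.0 and 32.8 to 26.8, 25.6 and 22.5. The groups did not overlap in either line. The log2 change was -0.39 (SE 0.06, edgeR adjusted p = 1.23e-05) in KYSE30 and -0.44 (SE 0.07, edgeR adjusted p = 2.72e-06) in U138MG. AXL shares 1.3% of its exon length with the antisense gene AC011510.1.

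F3 (chr1:94529225-94541800, minus strand) encodes tissue factor, the membrane receptor of factor VII that starts blood clotting and depends on phosphatidylserine in the membrane for full activity. It moved in opposite directions. In KYSE30 its levels were 279, 223 and 251 in DMSO and 169, 172 and 184 in PTDSS1i. All treated libraries were below the vehicle range, and the log2 change was -0.52 (SE 0.07, edgeR adjusted p = 3.11e-06). In the libraries labelled U138MG, F3 went from 15.4, 14.9 and 14.3 to 52.9, 51.3 and 50.5. The groups were far apart with little spread, and the mean rose from 14.9 ± 0.548 to 51.6 ± 1.22 (SD, n = 3), 3.47-fold, a log2 change of 1.79 (SE 0.06, edgeR adjusted p = 4.38e-20). It was the largest rise among the 9 genes in either line.

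**Figure D2:**
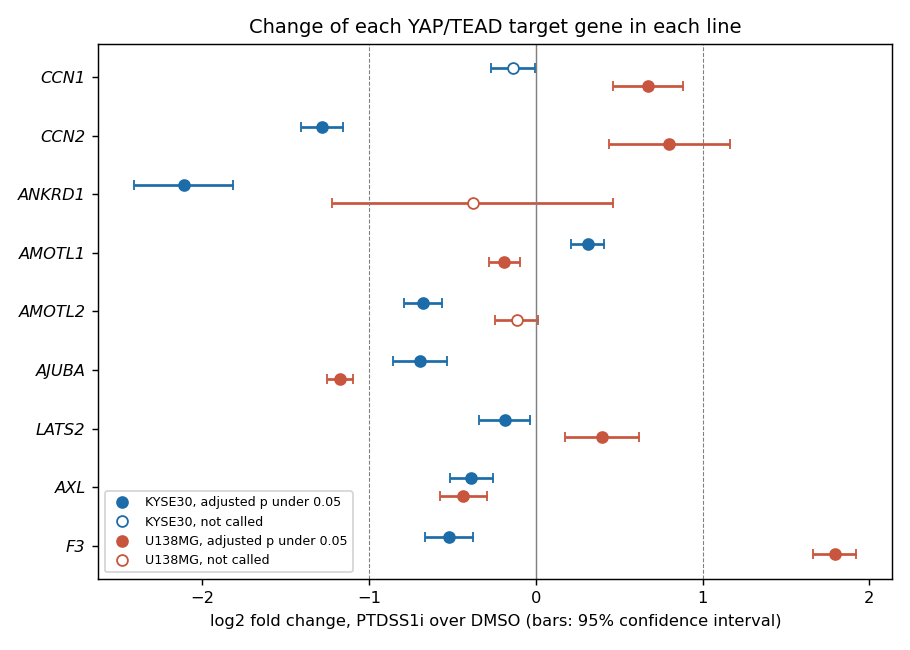
Log2 fold change of PTDSS1i over DMSO (x axis) for each of the 9 genes, with 95% confidence intervals from edgeR; blue is KYSE30, red the libraries labelled U138MG, filled points have an adjusted p under 0.05 and open points do not, and dashed lines mark a log2 change of 1 in either direction. CCN2 and F3 lie on opposite sides of 0 in the 2 lines, at -1.28 and 0.80 and at -0.52 and 1.79, whereas AXL lies at -0.39 and -0.44.

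The difference between the lines was tested directly as the interaction of line and treatment, over 18405 genes and all 12 libraries, with the edgeR quasi-likelihood test. The response differed for 8 of the 9 genes at an adjusted p of 0.05, beside 49.9% of all genes. The signed log2 change in U138MG minus that in KYSE30 was above 0 for 6 of them, beside 25.5% of all genes, and below 0 for 2, beside 24.4%. F3 and CCN2 differed most: the change in U138MG exceeded that in KYSE30 by 2.27 (SE 0.10, edgeR adjusted p = 9.96e-15) and by 2.05 on the log2 scale (SE 0.15, edgeR adjusted p = 1.72e-12). ANKRD1 followed with 1.69 (SE 0.39, edgeR adjusted p = 5.16e-04), which rests on about 10 to 22 counts per library in the U138MG vehicle group. For AXL the difference was -0.09 (95% CI -0.28 to 0.10, edgeR adjusted p = 0.468), which does not show that the responses were equal.

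CCN2, LATS2 and F3 were called lower in KYSE30 and higher in U138MG, which is 3 of the 9 genes beside 8.81% of the 13990 genes tested in both lines. AMOTL1 was called in the reverse order, which makes 4 of the 9 with opposite calls, beside 14.9%. AJUBA and AXL were called lower in both lines, beside 15.5% of all genes, and none of the 9 was called higher in both, beside 18.5%. The LATS2 call in KYSE30 is the one that was lost under several settings above.

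Before treatment the 9 genes differed widely in level, and the lines differed from each other. Levels per kb of exon are CPM of the library total divided by the exon length in GENCODE 29. In KYSE30 vehicle libraries F3 was the most abundant of the 9 at 90.2 CPM per kb, followed by AMOTL2 at 44.8, CCN1 at 30.9 and CCN2 at 29.3. AMOTL1 and AXL came next, both at 19.5, then ANKRD1 at 9.76, AJUBA at 5.75 and LATS2 at 4.94. CCN1 and CCN2, and AMOTL1 and AXL, are the neighbours whose ranges over 3 cultures overlapped. In U138MG vehicle libraries AJUBA led at 27.8, and AMOTL2 (11.0), AMOTL1 (8.06), AXL (6.87), F3 (5.44), CCN1 (4.10), LATS2 (1.63), CCN2 (1.55) and ANKRD1 (0.365) followed. Only LATS2 and CCN2 overlapped there.

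In 8 of the 9 genes each KYSE30 vehicle library was above each U138MG vehicle library, by 26.8-fold for ANKRD1, 18.9-fold for CCN2, 16.6-fold for F3 and 7.54-fold for CCN1. The ratio was 4.06-fold for AMOTL2, 3.04-fold for LATS2, 2.84-fold for AXL and 2.42-fold for AMOTL1. AJUBA was the exception, 4.84-fold higher in U138MG. These ratios have no test, since line, batch and the different gene tables of the lines cannot be told apart. With treatment, CCN2 and F3 fell in the line where they were abundant and rose in the one where they were scarce. LATS2 was called in the same order. AMOTL1, also more abundant in KYSE30, did the reverse, with log2 changes of 0.31 in KYSE30 and -0.19 in U138MG. AXL was lower in both lines (-0.39 and -0.44), as was AJUBA. Whether the response goes with the vehicle level was not tested.

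**Figure D3:**
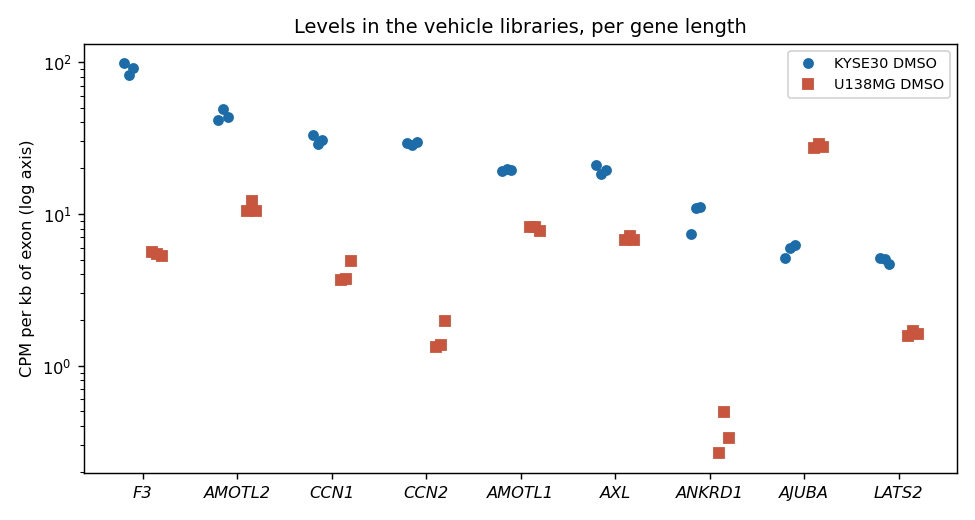
CPM per kb of exon (log axis) of the 9 genes in the 3 DMSO libraries of each line, ordered by the KYSE30 mean; blue circles are KYSE30 and red squares the libraries labelled U138MG. F3 runs highest in KYSE30 at 90.2 and AJUBA in U138MG at 27.8, and ANKRD1 is the lowest of the 9 in U138MG at 0.365.

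The effectors and regulators of the Hippo pathway were read next. Of 9 effectors, the coactivators, TEAD factors and their VGLL cofactors, 3 were higher, 2 lower and 4 not called in KYSE30. Of all genes, 30.1% were higher and 32.0% lower there. YAP1 stood at 103 ± 6.46 in DMSO and 106 ± 1.07 in PTDSS1i (SD, n = 3; log2 0.04, edgeR adjusted p = 0.575). WWTR1 (TAZ) was 0.12 higher on the log2 scale (edgeR adjusted p = 0.0437), a call lost with library size alone and with the upper quartile. TEAD4 is the exception in size, at 30.6, 28.6 and 28.0 in DMSO and 10.2, 11.2 and 13.5 in PTDSS1i. This TEAD factor fell by 1.32 on the log2 scale (SE 0.09, edgeR adjusted p = 4.32e-11), while TEAD1 was lower by less (-0.25), TEAD3 and VGLL4 were higher (0.28 and 0.35), and TEAD2 was at -0.29 without passing. Its response differed between the lines (edgeR adjusted p = 1.56e-09).

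Of the same 9 effectors, in the libraries labelled U138MG, 2 were higher, 5 lower and 2 not called. Of all genes, 33.9% were higher and 33.6% lower there. WWTR1 rose by 0.34 and YAP1 was lower by a small amount (log2 -0.14, edgeR adjusted p = 3.58e-04). TEAD4 was at 12.6 ± 0.834 in DMSO and 12.5 ± 0.727 in PTDSS1i, with a log2 change of -0.02. VGLL1, a cofactor that binds TEAD in place of YAP, went from 4.34, 4.49 and 4.17 to 0.307, 0.875 and 1.36. All its treated libraries were lower, with wide spread among them, and the log2 change was -2.33 (SE 0.32, edgeR adjusted p = 5.71e-06). VGLL3 and VGLL4 were lower by 0.50 and 0.26 in log2 units. TEAD1 was at -0.12, a call that DESeq2 did not make (adjusted p = 0.116), TEAD2 was at 0.17, a call lost with library size alone (adjusted p = 0.753), and TEAD3 was not called (-0.02), but was lower with library size alone (-0.17, adjusted p = 5.20e-03).

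Among 14 Hippo kinases and upstream regulators, 4 were higher and 2 lower in KYSE30, with 8 not called, beside 30.1% higher and 32.0% lower of all genes. With library size alone 4 of them were higher and 4 lower in KYSE30, where 3932 of all genes were then higher and 6460 lower. In U138MG 9 were higher, 4 lower and 1 not called, beside 33.9% higher and 33.6% lower of all genes. MAP4K4, a kinase that can act on LATS in parallel to MST, was higher in both lines, from 148 to 226 (log2 0.61, SE 0.05) in KYSE30 and from 48.3 to 128 (log2 1.41, SE 0.04) in U138MG. SAV1, the scaffold of the MST kinases, was also higher in both, with log2 changes of 0.45 and 0.65, as was the kinase TAOK1, with 0.36 and 0.42. AMOT, the founding angiomotin, was higher in KYSE30 (0.42) and lower in U138MG (-0.78), the same order as its relative AMOTL1. WTIP, a LIM protein related to AJUBA, fell in U138MG from 1.53 to 0.689 and was not called in KYSE30. The list's median was 0.07 in KYSE30, where it is at -0.03 with library size alone, and 0.34 in U138MG. With library size alone the U138MG median was 0.20 (upper quartile also 0.20), with 8 higher and 5 lower. Of all genes, 4533 were then higher and 7694 lower with library size alone.

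A further 15 genes that are often listed as YAP/TEAD targets gave 9 lower, 4 higher and 2 not called in KYSE30 (median -0.22), where 32.0% of all genes were lower and 30.1% higher. DESeq2 gave 7 lower and 4 higher, beside 4463 lower and 4627 higher of all genes. FJX1 went from 20.4 to 8.49 (log2 -1.26), FOXF2 from 6.87 to 2.99 (-1.19), ARHGEF17 from 42.8 to 28.0 (-0.61) and TGFB2, a secreted growth factor, from 24.3 to 16.3 (-0.58). In the libraries labelled U138MG they split evenly, 7 higher and 7 lower, with 1 not called (median -0.03), where 33.6% of all genes were lower and 33.9% higher. CCDC80 went from 392 to 135 (log2 -1.53), whereas DOCK5 rose from 40.8 to 96.2 (1.24), GADD45A, a gene of growth arrest and DNA damage, from 39.3 to 85.1 (1.11) and NT5E (CD73) from 5.85 to 12.3 (1.07). TGFB2 and FJX1 were higher in U138MG, by 0.67 and 0.36, the reverse of KYSE30. The response differed between the lines for 11 of the 15, beside 49.9% of all genes.

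**Figure D4:**
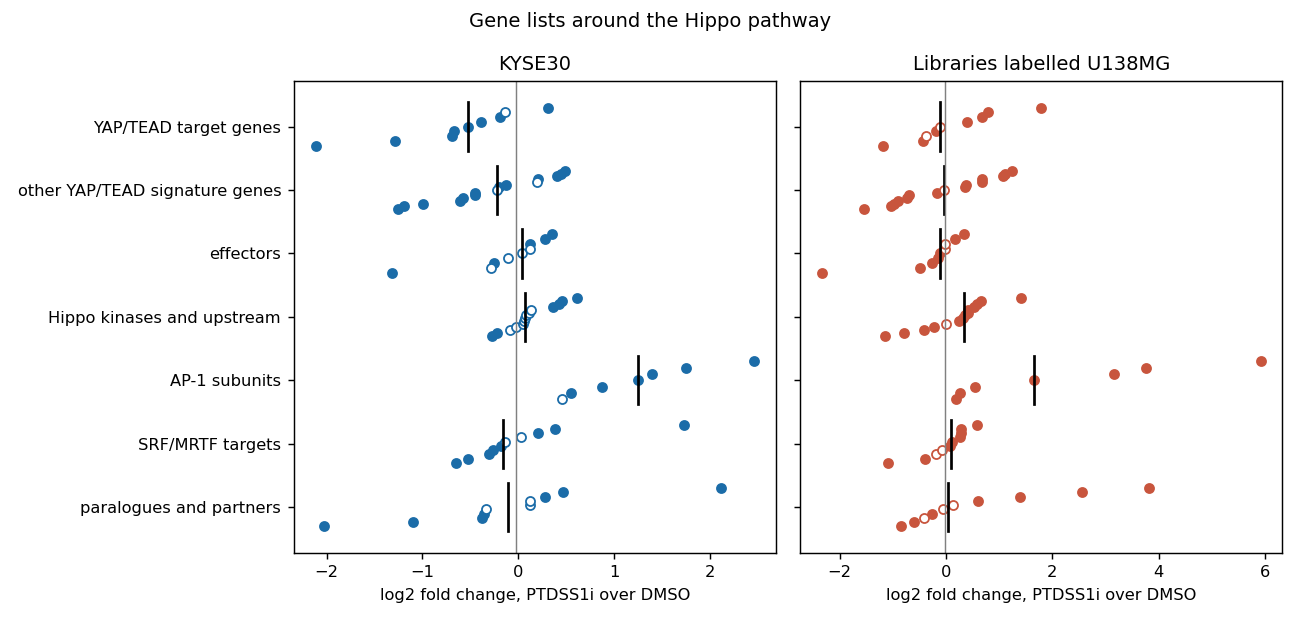
Log2 fold change of PTDSS1i over DMSO (x axis, a range of its own in each panel) of the genes in each list in KYSE30 (left) and the libraries labelled U138MG (right); filled points have an adjusted p under 0.05, open points do not, the short black lines are list medians and the grey line the median of all tested genes. The YAP/TEAD target genes have a median of -0.52 in KYSE30 and -0.11 in U138MG, while the AP-1 subunits have medians of 1.24 and 1.65.

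AP-1 factors, dimers of JUN and FOS proteins that often share enhancers with TEAD, rose in both lines. Of 7 subunits, 6 were higher in KYSE30, beside 30.1% of all genes, and 7 in U138MG, beside 33.9%. Of these subunits 0 were lower in either line. Their median log2 change was 1.24 in KYSE30 and 1.65 in U138MG. JUN went from 55.4, 49.2 and 51.0 to 124, 123 and 122 in KYSE30. In the libraries labelled U138MG it went from 25.8, 28.8 and 24.8 to 362, 357 and 356. JUN was thus far above the vehicle range in every treated library, with log2 changes of 1.24 (SE 0.06, edgeR adjusted p = 2.76e-14) and 3.76 (SE 0.05, edgeR adjusted p = 9.88e-31).

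FOSL1 (FRA1) was the subunit with the largest rise in U138MG. It went from 1.30, 0.94 and 1.78 to 81.7, 83.7 and 77.7 there, a log2 change of 5.92 (SE 0.10, edgeR adjusted p = 1.30e-26). In KYSE30 it was already at 73.8, 42.4 and 49.1 in DMSO and stood at 75.2, 75.3 and 75.4 in PTDSS1i. DMSO replicate 1 was close to the treated libraries, and the log2 change of 0.45 did not pass (edgeR adjusted p = 0.161). FOSB rose by 2.46 and 3.17 and JUND by 1.75 and 1.65 in KYSE30 and U138MG, and FOS by 1.40 and 0.54. JUNB is the call in U138MG that was lost with library size alone or the upper quartile as the scale.

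Targets of SRF and its coactivator MRTF, which report actin dynamics, gave no common direction. Of 12 such genes, 10 were tested in each line. In KYSE30 3 were higher and 5 lower, beside 30.1% and 32.0% of all genes. In U138MG 6 were higher and 2 lower, beside 33.9% and 33.6%. With library size alone the U138MG counts were 4 higher and 3 lower, beside 4533 higher and 7694 lower of all genes. The actin crosslinker filamin A (FLNA) went from 584 to 372 (log2 -0.65) in KYSE30 and from 987 to 1474 (0.58) in U138MG. The actin gene ACTB changed by -0.53 and 0.26, and the focal adhesion gene vinculin (VCL) was higher in both (0.39 and 0.28). TAGLN was higher in KYSE30 from a low level (0.965 to 3.23, log2 1.73), and TPM2 (log2 -1.09) and ACTA2 (-0.39, not called by DESeq2) were lower in U138MG.

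The paralogues and binding partners of the 9 genes were also read. CCN3 and CCN5 are further members of the CCN family. CCN5 went from 12.3, 16.7 and 10.5 to 193, 198 and 168 in the libraries labelled U138MG and from 3.03, 3.08 and 3.28 to 0.792, 0.459 and 0.991 in KYSE30. It rose in U138MG (log2 3.82, SE 0.17, edgeR adjusted p = 4.06e-05) and fell in KYSE30 (-2.03, SE 0.24, edgeR adjusted p = 1.48e-07), the same order as CCN2. CCN3 rose in both lines, with log2 changes of 2.56 in U138MG and 2.12 in KYSE30, where its DMSO counts were only 8, 8 and 4.

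TYRO3, a relative of AXL, fell in KYSE30 from 21.7 to 10.1 (log2 -1.10) and was not called in U138MG. TFPI, the inhibitor of the tissue factor pathway, rose from 64.1 to 89.0 (log2 0.47) in KYSE30, where F3 fell, and from 23.4 to 61.4 (1.39) in U138MG, where F3 rose. TFPI2 was lower in KYSE30 (-0.37), and ANKRD23, a relative of ANKRD1, was lower in U138MG (-0.85). Of the 10 paralogues and partners tested in each line, 3 were higher and 4 lower in KYSE30, beside 30.1% and 32.0% of all genes. In U138MG 4 were higher and 3 lower, beside 33.9% and 33.6%. PTDSS1, whose product is inhibited, was at log2 -0.05 in KYSE30 (edgeR adjusted p = 0.494) and lower in U138MG (-0.38, edgeR adjusted p = 1.06e-08), and PTDSS2 was not called in either line.

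Markers of cell identity moved with treatment too. Over 6 squamous epithelium markers the summed level was 896 to 967 CPM of the library total in DMSO and 1140 to 1170 in PTDSS1i in KYSE30, and 6870 to 7670 and 1720 to 1840 in U138MG. In KYSE30 3 of these markers were higher, KRT14 was not called and KRT5 not tested, while TP63 was lower (log2 -0.42). In U138MG the fall was mostly that of KRT15 (4629 to 482), 4 markers were lower, 1 was not tested, and EPCAM was higher (236 to 366, log2 0.64). Over 5 mesenchymal markers it was 24.3 to 27.1 and 50.4 to 52.9 in KYSE30, and 766 to 792 and 407 to 422 in U138MG. VIM made most of the rise in KYSE30 (3.87 to 25.5), where 4 markers were higher and SPARC was lower (log2 -1.24). SPARC made the fall in U138MG (678 to 367), where COL1A1 was called higher (log2 0.15), CDH2 was not called and the other two were not tested. Of 5 glial markers, 3 were listed for KYSE30, with a sum of 97.6 to 103 in DMSO and 86.3 to 89.3 in PTDSS1i, and 5 for U138MG, of which 2 were at 0, with 40.8 to 43.7 and 7.05 to 8.52. The KYSE30 sum rests on SOX2, the only glial marker tested there. The part of these shifts in the changes of the target genes was not tested. Of all genes, 62.0% in KYSE30 and 67.5% in U138MG were called in either direction.

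The genes whose levels ran most like CCN2 over the 12 libraries, by Pearson's r of log2 CPM among 11233 genes, were PIGX, SEH1L and ABL1, with r of 0.996, 0.996 and 0.995. Within KYSE30 their r with CCN2 was 0.980, 0.975 and 0.982, and within U138MG 0.967, 0.927 and 0.924. For CCN1 they were RNF4, PSMC2 and DNMBP, with r of 0.997, 0.996 and 0.996, with 0.527, 0.739 and 0.177 within KYSE30 and 0.956, 0.959 and 0.952 within U138MG. The points share line, batch and treatment, so these values describe likeness over 4 groups and have no test.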

How the data were processed

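The authors deposited 1 table of raw counts per line, with integer reads per gene and no scaling. The submitters' processing notes name Trimmomatic, STAR, featureCounts and hg38; their versions, the gene annotation and whether strand was used are not given in the sources used here. The tables list 30984 and 78691 genes, of which 30358 are in both. Samples were grouped by their titles, and columns were matched by the sample descriptions.

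Counts were tested in R 4.3.3 with edgeR 4.0.16 (filterByExpr, minimum count 10 and minimum total 15; TMM; robust quasi-likelihood test; Benjamini-Hochberg adjustment over all tested genes, threshold 0.05), each line alone and, for the difference between lines, all 12 libraries over genes in both tables. DESeq2 1.42.0 was an alternative, besides other scalings, filters, thresholds, a replicate block, both lines together, and each library left out. Genes of the lists were named as the effectors and up to 4 per list and line with the largest change among those called with a mean of at least 1 CPM. The 9 genes, the lists and the markers were chosen with earlier results of these data known, and JUNB, PTDSS2, CCN3 and FOSL1 in KYSE30 and a named gene's value in the other line were added after values were seen. Same-numbered DMSO and PTDSS1i libraries of KYSE30 deviated together (correlations 0.212, 0.165 and 0.143 over genes of at least 5 CPM), and differently numbered ones gave -0.212 to 0.0749. The values were centred within each group and are not independent, so they do not settle whether the numbers pair the cultures. The main test had no replicate block, and the block changed no call of the 9 genes in KYSE30. Gene coordinates, exon lengths and overlaps are from GENCODE 29 (GRCh38), and promoters from RefSeq (GRCh38.p14). Figures used Python 3.11.15, pandas 2.3.3 and matplotlib 3.10.9.

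On simulated counts with 200 genes changed 2-fold, the test recovered 181 over 16185 genes for KYSE30 (15 false calls), 178 over 17323 for U138MG (6) and 189 over 18140 for the difference between lines (6). In the data 62.0% of genes in KYSE30 and 67.5% in U138MG were called in either direction. How the test and its scaling perform with that many genes called was not tested. Each SE is the absolute unshrunk log2 change divided by the square root of the quasi-likelihood F statistic. Intervals at 95% use that SE and edgeR's total degrees of freedom, the residual ones plus those borrowed across genes. Depth limits cover counting error only.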

Additional observations from a re-analysis of the deposited data

Results flagged for a closer look

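The response to PTDSS1i differed between the lines for 8 of the 9 YAP/TEAD target genes by edgeR's quasi-likelihood test of the interaction with Benjamini-Hochberg adjustment, beside 49.9% of all genes tested. All values are the log2 change in the libraries labelled U138MG minus that in KYSE30. The difference was 2.27 for F3 and 2.05 for CCN2, the genes that were called in opposite directions with the largest gap. It was 1.69 for ANKRD1, which fell in KYSE30 and was near the floor in U138MG, and 0.77 for CCN1, which was called higher in U138MG only. LATS2 differed by 0.54 and AMOTL2 by 0.52. AMOTL1 and AJUBA differed the other way, by -0.54 and -0.52. AMOTL1 was called higher in KYSE30 and lower in U138MG, and AJUBA was lower in both lines and more so in U138MG. What sets the lines apart cannot be told from their batches and gene tables.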

How the results depend on the processing

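Under the alternatives run, no change of a member gene and no difference between lines turned its direction, and the 8 differences between lines passed under each alternative that gave a value. The filter of at least 10 counts in every library removed ANKRD1 in U138MG and from the test between lines. A threshold of 1 on the absolute log2 change left 0 higher and 2 lower of the 9 genes in KYSE30, with 1049 and 1154 of all genes against 4927 and 5238, and 1 higher and 1 lower in U138MG, with 1446 and 2048 against 5989 and 5930. Library size alone moved the median of all genes by -0.105 in KYSE30 and by -0.147 in U138MG. The calls then split into 3932 higher and 6460 lower in KYSE30, and 4533 and 7694 in U138MG, where the upper quartile gave 4545 and 7691. Same-numbered U138MG libraries gave correlations of -0.0404, 0.0495 and 0.0952, beside -0.159 to 0.123 for differently numbered ones, so no pairing was seen in U138MG. The replicate block there added AMOTL2 as lower (-0.11, edgeR adjusted p = 0.0434), and changed no other call of the 9 genes in either line or between the lines, where it gave 8 of 9. Leaving out libraries ended calls only for LATS2 in KYSE30 and added CCN1, as given above, and an adjusted p of 0.01 ended the same LATS2 call. ANKRD1 in U138MG, at 9 to 22 counts, is the gene whose depth limits what could be seen.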
